A study of Mus musculus with 8 samples.

Results

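The 6 genes of the ZEB, SNAI and TWIST families, Zeb1, Zeb2, Snai1, Snai2, Twist1 and Twist2, were followed in melanocyte stem cells with and without Bmi1. They were found by symbol, and 6 of 6 had a row among the 54418 genes of the deposited tables. None of the 4 members with enough counts to test passed an edgeR adjusted p under 0.05 in either direction, which does not show equal levels. Below, genes counted as having risen or fallen are those that passed this threshold. Zeb2 was by far the most abundant of the 6, the low-count gene Twist1 had the largest fitted difference, and Snai1 and Twist2 were close to the limit of detection.

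ZEB, SNAI and TWIST proteins are transcription factors of epithelial-mesenchymal transition, the programme by which neural crest cells leave the neural tube. ZEB and SNAI proteins are zinc finger repressors that bind E-boxes with the core CACCTG in promoters of cell junction genes such as Cdh1, and TWIST proteins are basic helix-loop-helix factors that bind E-boxes together with E proteins. In the melanocyte lineage ZEB2 and SNAI2 go with differentiation and survival, whereas ZEB1 and TWIST1 are known from dedifferentiated, invasive melanoma cells, and the exchange of one pair for the other is used as a sign of melanocyte state.

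The cells came from dorsal skin of mice of mixed strain (C57Bl-6 with 129Sv) at postnatal day 21 and were sorted as live, not autofluorescent and positive for GFP. There were 4 Bmi1-deleted libraries, from Bmi1fl/fl mice with Tyrosinase-Cre, and 4 control libraries, from Bmi1fl/fl mice without Cre. All of the mice carried Dct-rtTA with the TRE-H2B-GFP reporter and were fed doxycycline. The Tyrosinase promoter drives Cre in the pigment lineage, and deletion was not measured by cell type. The Bmi1-deleted libraries held 9076517 to 10368174 counts and the control libraries 8882656 to 9466711. No label says that replicates came from separate animals, so p-values measure the spread between these samples, which may be technical.

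Bmi1, the deleted gene, stood at 69.6 ± 0.880 CPM in Bmi1-deleted libraries and 83.4 ± 10.0 CPM in control libraries (SD, n = 4 each), where CPM are counts per 1000000 scaled by the TMM method. The groups lay apart. The log2 change was −0.26 (SE 0.12) and missed the threshold (edgeR adjusted p = 0.607), while limma on the deposited log2 TPM gave −1.17 (adjusted p = 0.414). Whole-gene counts include reads outside the deleted part. Melanocyte genes were high in both groups. The sum of 20 genes of the melanocytic programme was 6327 to 12543 CPM in Bmi1-deleted libraries and 10906 to 17385 CPM in control libraries. Markers of other skin cells were present as well, and their values stand beside the results they move with.

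Levels of different genes were compared per length, as CPM per kb of annotated exon and as the deposited TPM. Zeb2 stood at 61.7 ± 16.0 CPM per kb in Bmi1-deleted libraries and 50.5 ± 16.4 in control libraries (SD, n = 4 each), above 96.8% of the 16011 tested genes on this scale. It made up 75.1% to 79.4% of the summed CPM per kb of the 6 genes in Bmi1-deleted libraries and 67.8% to 78.1% in control libraries. In the deposited TPM its mean level was 148 ± 43.0 in Bmi1-deleted and 149.6 ± 82.7 in control libraries. Zeb2 was the highest of the 6 in 8 of 8 libraries on both scales, and its lowest library lay above the highest library of any other member.

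Zeb1 and Snai2 followed, in an order that depends on the scale. Per kb of exon the mean over the 8 libraries was 7.61 CPM for Zeb1 and 8.26 CPM for Snai2, with overlapping ranges and Snai2 above Zeb1 in 5 of 8 libraries. In the deposited TPM Zeb1 averaged 12.7 and Snai2 2.73, and Zeb1 was higher in 8 of 8. TPM from Salmon rest on transcript lengths estimated in each library, while CPM per kb uses all annotated exons, 10266 bases for Zeb1 and 2021 bases for Snai2. On both scales Twist1, Snai1 and Twist2 lay below these, with means over the 8 libraries of 1.08, 0.440 and 0.193 CPM per kb, and their ranges overlapped one another. Snai1 lay above 5.80% of the tested genes on this scale and Twist2 above 0.924%.

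**Figure D1:**
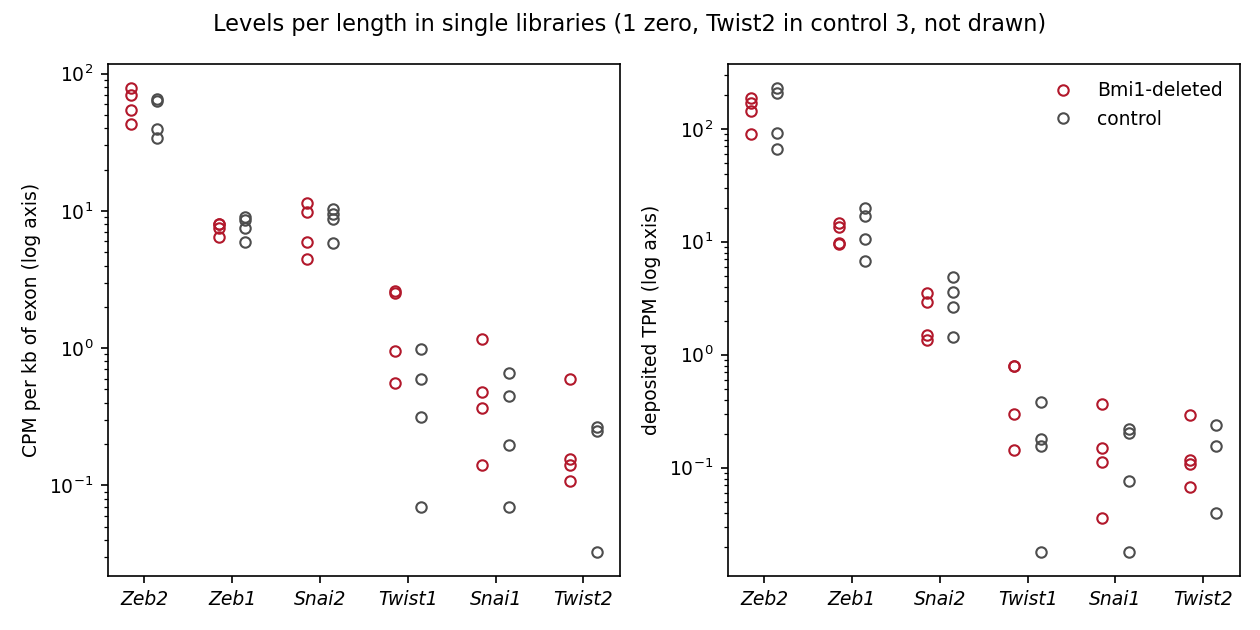
Levels of the 6 factors per length in single libraries, left in CPM per kb of exon and right in deposited TPM, on log axes, with Bmi1-deleted libraries (red) left of control libraries (grey). Zeb2 lies above every other member in 8 of 8 libraries, Zeb1 and Snai2 overlap on the left axis and part on the right one, and Twist1, Snai1 and Twist2 overlap on both.

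Zeb2 (ENSMUSG00000026872, mm10 chromosome 2, 44983632 to 45117395, minus strand), the ZEB factor of the differentiated lineage, had 1397, 1580, 1085 and 863 CPM in Bmi1-deleted libraries 1 to 4, against 1303, 1271, 782 and 673 CPM in control libraries 1 to 4. Replicates 1 and 2 were high and replicates 3 and 4 low in both genotypes, and the groups overlapped. The mean level was 1231 ± 319 CPM in Bmi1-deleted and 1008 ± 326 CPM in control libraries (SD, n = 4 each). The log2 change of 0.29 (SE 0.25, 95% interval −0.26 to 0.84) did not pass (edgeR adjusted p = 0.857).

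Within same-numbered pairs the CPM of Zeb2 was higher in the Bmi1-deleted library in 4 of 4, with log2 differences of 0.10, 0.31, 0.47 and 0.36. The deposited TPM did not share this. There Zeb2 was lower in the Bmi1-deleted library in pair 1 (168 against 209) and pair 2 (189 against 232). It was higher in pair 3 (144 against 91.9) and pair 4 (89.3 against 66.2). Blocking on replicate number gave Zeb2 a log2 change of 0.31 (SE 0.10), which also missed the threshold (edgeR unadjusted p = 0.00544, adjusted p = 0.127). Zeb2os, the antisense gene whose exons overlap those of Zeb2, had 16 to 42 counts in Bmi1-deleted and 22 to 31 in control libraries. The Zeb2 counts were 7614 to 15898 in Bmi1-deleted and 5949 to 12344 in control libraries, and the sources used here do not say whether counting used strand.

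Zeb1 (ENSMUSG00000024238, chromosome 18, 5591860 to 5775467, plus strand), the ZEB factor of the invasive state, had 77.2, 81.9, 83.0 and 66.1 CPM in Bmi1-deleted libraries, against 76.6, 92.1, 87.8 and 60.4 CPM in control libraries. The range of the Bmi1-deleted libraries lay inside that of the control libraries. Means were 77.0 ± 7.70 CPM in Bmi1-deleted and 79.2 ± 14.1 CPM in control libraries (SD, n = 4 each), with a log2 change of −0.04 (SE 0.15, 95% interval −0.36 to 0.28, edgeR adjusted p = 0.981). Of the 4 tested members it had the narrowest interval. Gm10125, a gene on the opposite strand that overlaps its exons, had 11 to 51 counts in Bmi1-deleted and 18 to 57 in control libraries.

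Snai2 (ENSMUSG00000022676, chromosome 16, 14705852 to 14709385, plus strand), also called Slug and required for melanoblast development, had 23.2, 20.0, 9.01 and 12.0 CPM in Bmi1-deleted libraries, against 19.1, 20.7, 17.8 and 11.8 CPM in control libraries. Bmi1-deleted libraries 3 and 4 and control library 4 were low. Means were 16.0 ± 6.63 CPM in Bmi1-deleted and 17.3 ± 3.90 CPM in control libraries (SD, n = 4 each), and the log2 change was −0.11 (SE 0.30, 95% interval −0.76 to 0.54, edgeR adjusted p = 0.971). Without Bmi1-deleted library 3 the value was 0.081.

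Snai1 (ENSMUSG00000042821, chromosome 2, 167538195 to 167542814, plus strand), the Snail factor that starts epithelial-mesenchymal transition in many tissues, had 17, 6, 7 and 2 counts in Bmi1-deleted libraries, against 3, 7, 10 and 1 in control libraries. It failed the count filter. Its level was 0.869 ± 0.709 CPM in Bmi1-deleted and 0.556 ± 0.426 CPM in control libraries (n = 4 each, exact two-sided permutation p = 0.543). SNAI1 is known to repress its own gene through an E-box in its promoter, and the mouse window, 250 bases before the annotated start (RefSeq, GRCm38.p6, chr2:167537945-167538194, plus strand), held 1 CACCTG, shown in capitals.
Snai1: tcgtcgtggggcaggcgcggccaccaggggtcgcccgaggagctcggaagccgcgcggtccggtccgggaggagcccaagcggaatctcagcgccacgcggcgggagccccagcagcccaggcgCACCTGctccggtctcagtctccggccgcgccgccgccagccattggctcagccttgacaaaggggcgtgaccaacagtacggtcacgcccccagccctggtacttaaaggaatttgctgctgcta
The core was searched as CACCTG on both strands, so that CAGGTG counts as a match. It was found in 17.1% of the 27025 first promoter windows of that length in the RefSeq table. Windows were given for 4 of the 6 members, and those of Twist1, Twist2 and Zeb2 held 0 matches.

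Twist1 (ENSMUSG00000035799, chromosome 12, 33957671 to 33959829, plus strand), the TWIST factor of the cranial neural crest and of mesenchyme, had 37, 43, 14 and 8 counts in Bmi1-deleted libraries, against 15, 5, 9 and 1 in control libraries. These are 4.08, 4.27, 1.56 and 0.907 CPM in Bmi1-deleted and 1.59, 0.515, 0.963 and 0.113 CPM in control libraries. Bmi1-deleted libraries 1 and 2 stood above all others, while the other 6 libraries were mixed. The mean was 2.70 ± 1.72 CPM in Bmi1-deleted and 0.796 ± 0.635 CPM in control libraries (SD, n = 4 each), a ratio of 3.40. The gene did not pass (log2 change 1.75, SE 0.85, 95% interval −0.09 to 3.59, edgeR adjusted p = 0.633), although it was higher in the Bmi1-deleted library of 4 of 4 same-numbered pairs. The gene entered the test through 3 Bmi1-deleted libraries and 1 control library with at least 10 counts.

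Polycomb complexes gather at promoters dense in CG dinucleotides, and the 250 bases before the Twist1 start (chr12:33957421-33957670, plus strand) held 18 of them, in capitals, against a median of 6 over the first windows of all genes.
Twist1: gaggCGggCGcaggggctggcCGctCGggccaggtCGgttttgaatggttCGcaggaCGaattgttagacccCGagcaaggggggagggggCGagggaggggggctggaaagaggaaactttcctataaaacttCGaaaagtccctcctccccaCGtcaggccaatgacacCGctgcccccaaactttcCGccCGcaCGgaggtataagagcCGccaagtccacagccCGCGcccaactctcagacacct
The windows of Snai1 and Twist2 held 27 and 23 CG dinucleotides, and the 4 windows listed for Zeb2 held 6 to 14. Of all first windows 78.4% had fewer than Twist1, 91.8% fewer than Snai1 and 87.0% fewer than Twist2. No chromatin data were analysed here.

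Twist2 (ENSMUSG00000007805, chromosome 1, 91801461 to 91848028, plus strand), also called Dermo1 after its expression in dermis, had 17, 5, 4 and 3 counts in Bmi1-deleted libraries, against 8, 1, 0 and 7 in control libraries. It failed the count filter. Its level was 0.789 ± 0.727 CPM in Bmi1-deleted and 0.436 ± 0.447 CPM in control libraries (n = 4 each, exact two-sided permutation p = 0.371; the smallest p that 70 assignments allow is 0.0286). The 0 in control library 3 allows up to 3 counts. This floor covers counting error only, whereas the 95% intervals of the log2 changes include the spread between libraries.

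**Figure D2:**
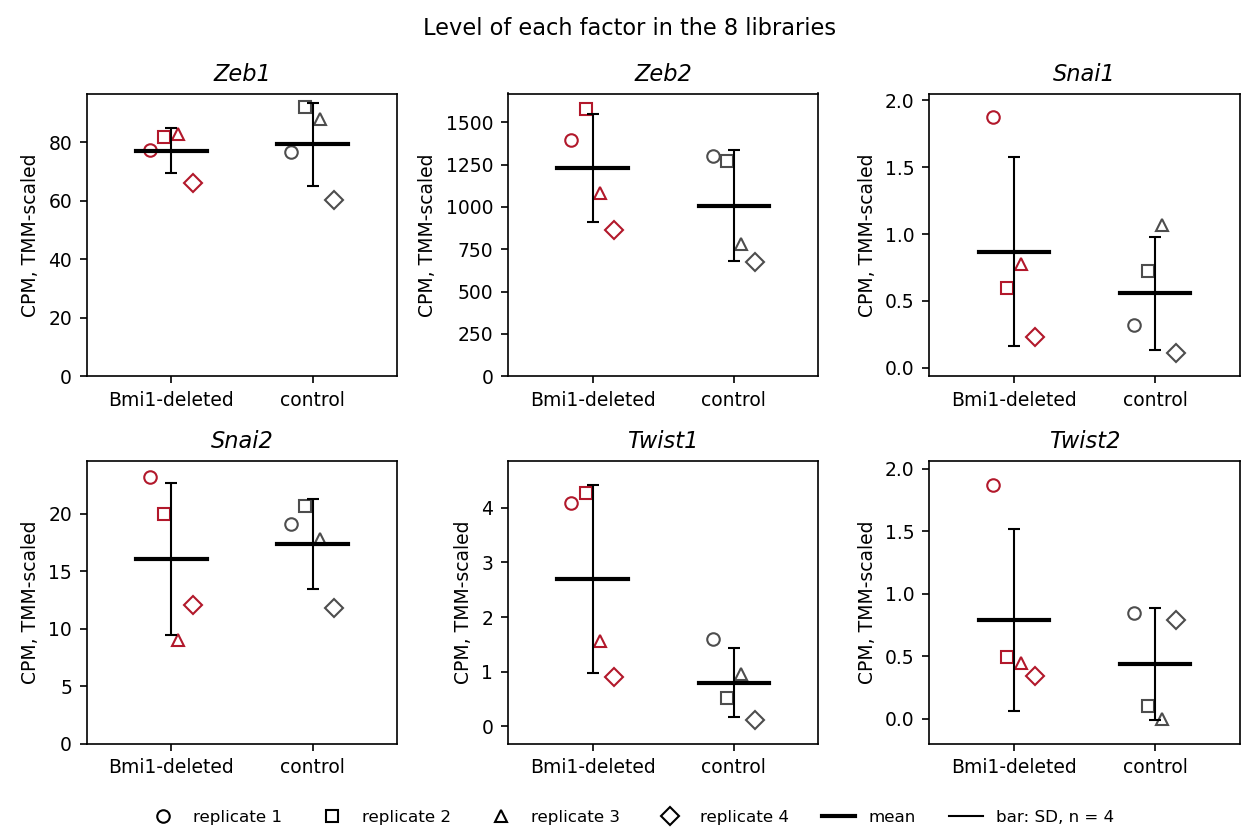
Level of each factor in the 8 libraries in TMM-scaled CPM on linear axes, with Bmi1-deleted libraries (red) left of control libraries (grey), one symbol per replicate number, the mean as a thick line and the SD over 4 libraries as a bar. The groups overlap for all 6 factors, and replicates 1 and 2 are the highest for Zeb2 in both groups.

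Over the 6 members, 0 passed higher and 0 passed lower of the 4 tested, where 0.0874% of all tested genes passed higher and 0.00625% passed lower. At an unadjusted p under 0.05 (edgeR) 0 of the 4 passed as well, against 8.27% of all tested genes, while DESeq2 had 1 of 4, Twist1 (unadjusted p = 0.0372, adjusted p = 0.47), against 9.06% of all genes. Blocked edgeR also had 1 of 4 at an unadjusted p under 0.05, Zeb2, against 12.3% of all genes. With the replicate block the members called were again 0, against 1.71% of genes higher and 0.706% lower. DESeq2 and limma on the deposited log2 TPM called 0 members too. The groups overlapped for 6 of 6 members, whereas 5.18% of the tested genes had groups that did not overlap. A missed threshold does not show equal levels. The intervals leave room for a log2 change of up to 0.84 for Zeb2 and down to −0.76 for Snai2.

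**Figure D3:**
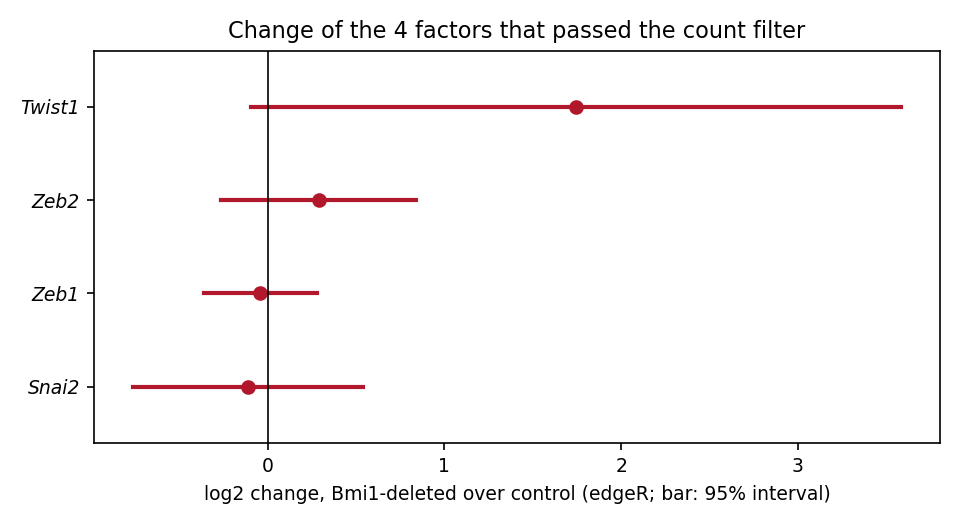
Log2 change of the 4 tested factors, Bmi1-deleted over control, from edgeR, with bars for the 95% interval. The 4 intervals hold 0, and that of Twist1 is the widest, from −0.09 to 3.59.

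The balance between the factors was described by ratios within a library, on log2 of CPM plus 0.5, with no test. The Zeb2 to Zeb1 ratio was 4.17, 4.26, 3.70 and 3.70 in Bmi1-deleted libraries, against 4.08, 3.78, 3.15 and 3.47 in control libraries. It averaged 3.96 ± 0.300 in Bmi1-deleted and 3.62 ± 0.401 in control libraries (SD, n = 4 each), and the groups overlapped. On this scale it was higher in the Bmi1-deleted library in 4 of 4 same-numbered pairs. In the deposited TPM it was lower in the Bmi1-deleted library in pairs 1 and 4 and higher in pairs 2 and 3. In pair 1 Zeb2 and Zeb1 had 168 and 14.5 TPM in the Bmi1-deleted library, against 209 and 16.9 in the control library. The part of other cell types in this ratio was not tested.

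The Snai2 to Twist1 ratio was 2.37, 2.10, 2.21 and 3.15 in Bmi1-deleted libraries, against 3.23, 4.38, 3.64 and 4.32 in control libraries, and the mean difference was −1.44. The groups lay apart on this scale, but they overlapped without the added 0.5, when Bmi1-deleted library 4 had 3.73 and control library 1 had 3.58. The Zeb2 to Twist1 ratio was 8.25 to 9.26 in Bmi1-deleted and 9.06 to 10.3 in control libraries. Each of these ratios was lower in the Bmi1-deleted library in 4 of 4 pairs, and both rest on the low counts of Twist1. In pair 3 the Zeb2 to Twist1 ratio was 9.04 in the Bmi1-deleted and 9.06 in the control library.

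**Figure D4:**
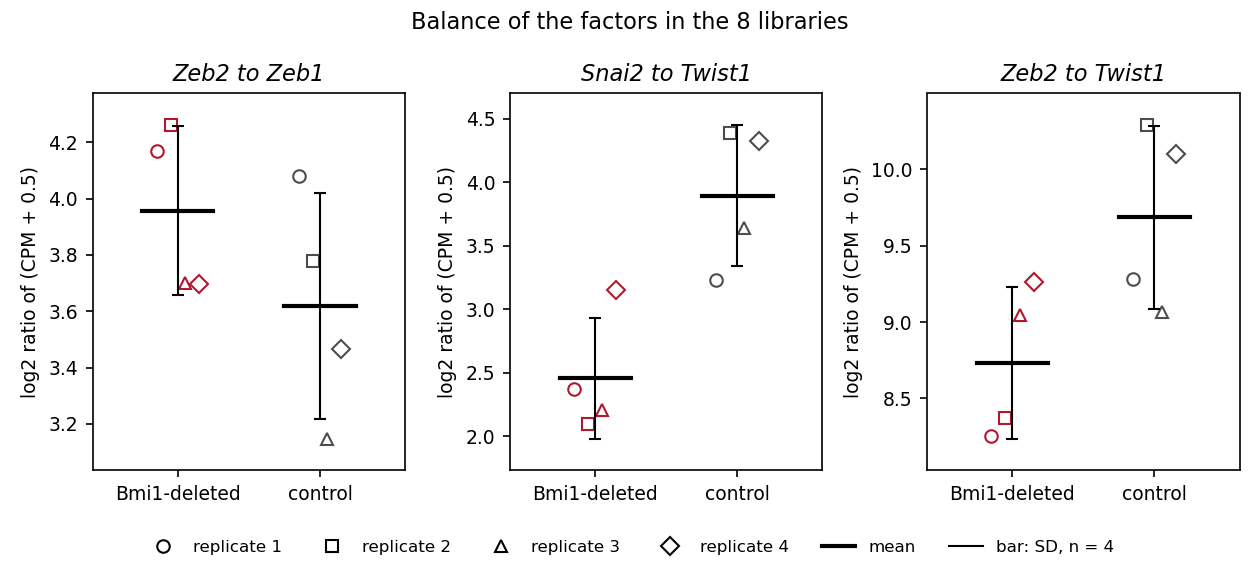
Log2 ratios of CPM plus 0.5 for 3 pairs of factors in the 8 libraries, with Bmi1-deleted libraries (red) left of control libraries (grey), the mean as a thick line and the SD over 4 libraries as a bar. The Zeb2 to Zeb1 ratio averages 3.96 in Bmi1-deleted and 3.62 in control libraries, while the ratios to Twist1 are lower on average in Bmi1-deleted libraries.

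Markers of other cell types moved with the same libraries, and in bulk RNA fewer cells of a type and less RNA per cell cannot be told apart. The summed level of 17 fibroblast markers was 18976, 15921, 11243 and 8952 CPM in Bmi1-deleted libraries, against 9166, 7393, 6148 and 5325 CPM in control libraries, with at most 1 of the 17 at 0 in a library. Collagen genes made up most of this sum, with Col3a1 at a mean of 5349 CPM in Bmi1-deleted and 2748 CPM in control libraries. Other markers of the list were low, such as Dcn at 34.8 and 8.73 CPM and Pdgfra at 7.07 and 3.10 CPM. The 2 libraries highest in Twist1 were the 2 highest in the fibroblast marker sum. They were also the 2 highest in the Schwann cell, keratinocyte, endothelial, mural cell and immune marker sums. With the mean fibroblast marker level of the 16 tested ones as a covariate the Twist1 log2 change was 0.21 (SE 1.08, edgeR adjusted p = 0.963), and with the replicate block as well it was 3.20 (SE 2.32, adjusted p = 0.654). For Zeb2 the same 2 fits gave −0.30 (SE 0.20, adjusted p = 0.644) and 0.41 (SE 0.21, adjusted p = 0.465). The sign of Zeb2 differed between these fits, and that of Twist1 was the same in both.

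The summed level of 12 Schwann cell markers, genes of the glia that share their origin with melanocytes and also use Zeb2, was 6140, 6880, 5824 and 4927 CPM in Bmi1-deleted libraries, against 5187, 4526, 3575 and 2830 CPM in control libraries. Within each genotype the 2 libraries highest in Zeb2 were also the 2 highest in these markers. The same held for the fibroblast, endothelial and mural cell marker sums. The sum of 10 immune markers, which include genes of macrophages, another cell type that uses Zeb2, was 68.8 to 101 CPM in Bmi1-deleted and 45.4 to 71.7 CPM in control libraries. Bmi1-deleted libraries 1 and 2 were the highest of their group in this sum. Control libraries 1 and 2 were the lowest of theirs, at 45.4 and 47.1 CPM, against 71.6 and 71.7 CPM in control libraries 3 and 4. The part of these cells in the levels of Zeb2 was not tested.

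**Figure D5:**
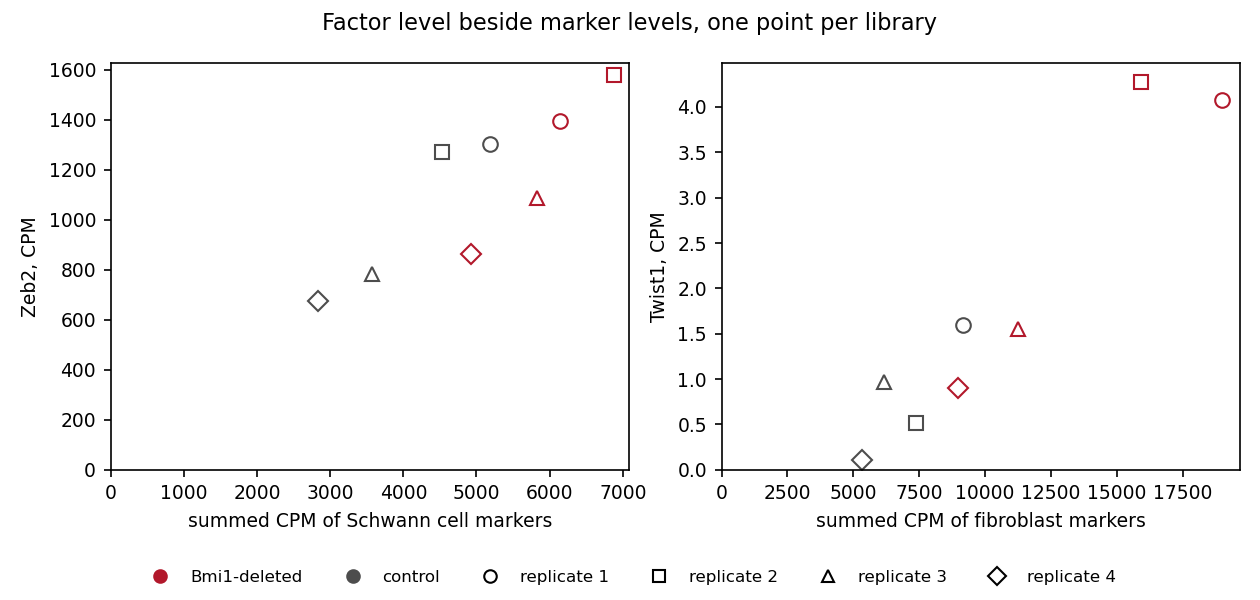
Zeb2 against the summed Schwann cell markers (left) and Twist1 against the summed fibroblast markers (right), in CPM, one point per library, Bmi1-deleted in red and control in grey, with a symbol for each replicate number. Within each genotype replicates 1 and 2 are highest in both Zeb2 and the Schwann cell sum. The 2 libraries highest in Twist1, Bmi1-deleted 1 and 2, are highest in the fibroblast sum. Neither pattern is particular to the marker list drawn, since sums of other lists share it.

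Of the marker lists for the remaining cell types, 12 keratinocyte markers summed to 1362 to 3053 CPM in Bmi1-deleted and 1832 to 2055 CPM in control libraries. The sum of 8 endothelial markers was 24.2 to 100.2 CPM in Bmi1-deleted and 16.5 to 37.5 CPM in control libraries. That of 8 mural cell markers was 512 to 755 CPM in Bmi1-deleted and 502 to 651 CPM in control libraries. Most of the mural cell sum was Cspg4, at 544 ± 94.6 CPM in Bmi1-deleted and 501 ± 71.9 CPM in control libraries. Among 11 dermal papilla markers the sum was 139 to 174 CPM in Bmi1-deleted and 116 to 172 CPM in control libraries. In these 7 marker lists 0 genes passed without the block (edgeR). Their median log2 changes were 0.96 for fibroblast, 0.14 for dermal papilla, 0.18 for keratinocyte, 0.53 for Schwann cell, 0.72 for endothelial, 0.62 for mural cell and 0.58 for immune markers, against 0.01 for all tested genes. Without the block 15 of 16 tested fibroblast, 11 of 12 Schwann cell and 9 of 12 keratinocyte markers had a log2 change above 0. Fabp7 of the Schwann cell list lay below 0 (−0.66, edgeR adjusted p = 0.727). With the block 7 fibroblast, 8 Schwann cell, 2 keratinocyte and 1 dermal papilla marker passed higher, against 1.71% of all tested genes. None passed lower, against 0.706% of all tested genes. Examples of those that passed higher are Col1a1, a collagen chain, at 3131 ± 1699 CPM in Bmi1-deleted and 1262 ± 319 CPM in control libraries (adjusted p = 0.00306 with the block), and Vcan, a matrix proteoglycan of the dermal papilla list, at 88.9 ± 19.6 CPM in Bmi1-deleted and 51.7 ± 15.2 CPM in control libraries (adjusted p = 0.00291 with the block). The dermal papilla list was mixed, with 2 of its 4 tested genes above 0. Wif1, a Wnt inhibitor named after its values were seen, stood at 5.26 ± 1.93 CPM in Bmi1-deleted and 14.2 ± 5.62 CPM in control libraries (adjusted p = 0.257, 0.104 with the block), and Trps1, a zinc finger repressor, at 52.6 ± 6.35 CPM in Bmi1-deleted and 59.8 ± 8.17 CPM in control libraries (adjusted p = 0.83). Krt1, a keratin of the upper epidermis, stood at 79.1 ± 39.4 CPM in Bmi1-deleted and 38.3 ± 14.4 CPM in control libraries (adjusted p = 0.561, 0.0032 with the block). Pecam1, an endothelial adhesion molecule, stood at 20.5 ± 10.1 CPM in Bmi1-deleted and 9.94 ± 3.81 CPM in control libraries (adjusted p = 0.425).

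Genes that the factors repress in epithelia were detected in the same bulk libraries as Zeb2, which does not place them in the same cells. Cdh1, the E-cadherin gene, had 517, 463, 637 and 604 CPM in Bmi1-deleted libraries, against 616, 660, 696 and 871 CPM in control libraries. Its lowest library, Bmi1-deleted 2, was the highest in Zeb2 (1580 CPM), and its highest, control 4, was the lowest in Zeb2 (673 CPM). The groups overlapped at 1 library of each, and Cdh1 did not pass (log2 change −0.36, SE 0.14, edgeR adjusted p = 0.54, 0.084 with the replicate block). Keratinocytes express Cdh1 too, so its source among the sorted cells was not tested. Of 24 epithelial genes 17 were tested, and 0 rose and 0 fell, with a median log2 change of −0.06, against 0.01 for all tested genes. St14, a membrane protease, stood at 10.3 ± 2.30 CPM in Bmi1-deleted and 17.1 ± 4.31 CPM in control libraries (SD, n = 4 each, adjusted p = 0.48), and Cldn4, a tight junction claudin, at 29.4 ± 29.5 CPM in Bmi1-deleted and 9.94 ± 7.49 CPM in control libraries (adjusted p = 0.808).

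First promoter windows were given for 14 of the 24 epithelial genes, Cdh1 not among them. Of the 14, 7 held CACCTG on either strand, against 17.1% of all first windows, 1 of 13 for the mesenchymal effectors and 1 of 14 for the melanocytic genes. The epithelial list was chosen as genes that these factors repress, so its share is a description and not a test. The 120 bases before the start are shown for the 5 of the 7 whose genes were tested, with the E-box core in capitals, to let the repressors' binding core be seen in its setting. They lie at chr17:87635859-87635978, plus strand, for Epcam, chr5:134946935-134947054, minus strand, for Cldn4, chr4:98395706-98395825, plus strand, for Patj, chr15:102004343-102004462, minus strand, for Krt8, and chr3:89228936-89229055, plus strand, for Muc1 (RefSeq, GRCm38.p6).
Epcam: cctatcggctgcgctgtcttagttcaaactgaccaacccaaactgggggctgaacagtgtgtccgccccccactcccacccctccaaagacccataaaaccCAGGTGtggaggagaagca
Cldn4: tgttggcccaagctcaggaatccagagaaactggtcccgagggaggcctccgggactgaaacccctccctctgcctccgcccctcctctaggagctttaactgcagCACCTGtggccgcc
Patj: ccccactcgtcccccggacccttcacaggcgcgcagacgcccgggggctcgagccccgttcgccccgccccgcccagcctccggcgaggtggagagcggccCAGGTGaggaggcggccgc
Krt8: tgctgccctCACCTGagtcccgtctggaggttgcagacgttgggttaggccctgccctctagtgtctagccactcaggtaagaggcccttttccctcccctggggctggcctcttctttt
Muc1: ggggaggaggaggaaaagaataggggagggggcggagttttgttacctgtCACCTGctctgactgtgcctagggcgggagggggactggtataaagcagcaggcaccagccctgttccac
The core began 19 bases before the start in Epcam and Patj, 14 in Cldn4, 70 in Muc1 and 111 in Krt8. Epcam and Muc1 each held another match more than 120 bases before the start, outside the stretch shown. Epcam, an epithelial adhesion molecule, had a log2 change of 0.18 (edgeR adjusted p = 0.962), Patj, a polarity scaffold, of −0.08 (0.977), Krt8, a keratin of simple epithelia, of −1.47 (0.703) and Muc1, a mucin, of 0.48 (0.884). Krt8 was low, at 1.01 ± 0.392 CPM in Bmi1-deleted and 2.84 ± 1.82 CPM in control libraries (SE of the log2 change 0.82). Muc1 was low as well, at 3.86 ± 1.15 CPM in Bmi1-deleted and 2.77 ± 0.519 CPM in control libraries. A match is a description of the sequence and says nothing of binding in these cells.

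Of 20 tested mesenchymal effectors 1 rose and 0 fell, and the list's median log2 change was 0.39. The gene that rose was Mmp2, a matrix protease, at 103 ± 11.4 CPM in Bmi1-deleted and 44.5 ± 6.23 CPM in control libraries (SD, n = 4 each, log2 change 1.21, SE 0.14, edgeR adjusted p = 0.00319). With the replicate block 5 rose (Mmp2, Tnc, Sparc, Axl and Cdh2) and 1 fell (Ctnnb1, the beta-catenin gene). Of all tested genes 1.71% rose and 0.706% fell with the block. Cdh2, the N-cadherin gene that replaces Cdh1 in epithelial-mesenchymal transition, stood at 180 ± 52.7 CPM in Bmi1-deleted and 123 ± 50.6 CPM in control libraries (adjusted p = 0.746, 0.00935 with the block). Vim, the mesenchymal filament gene, stood at 3837 ± 97.9 CPM in Bmi1-deleted and 3067 ± 264 CPM in control libraries (adjusted p = 0.485, 0.113 with the block). Fibroblasts express these genes as well, and the median log2 change of their own markers was 0.96.

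The melanocytic programme contains genes that are known to go with ZEB2 and SNAI2 in this lineage. Of its 20 tested genes 0 passed without the block and 12 fell with it, where 0.706% of all tested genes fell, and the median log2 change was −0.64. Their summed level was 6595, 6327, 10667 and 12543 CPM in Bmi1-deleted libraries, against 10906, 12111, 15106 and 17385 CPM in control libraries. Bmi1-deleted libraries 1 and 2, the lowest in this sum, were the highest in the fibroblast and Schwann cell marker sums given above, and among control libraries the melanocytic sum ran in the reverse order of both. Within each genotype the melanocytic sum also ran in the reverse order of the Zeb2 CPM. Zeb2 was lowest in Bmi1-deleted library 4 (863 CPM) and control library 4 (673 CPM), the highest of their groups in this sum. The part of other cell types in the melanocytic values was not tested. Trpm1, a melanocyte ion channel, stood at 49.6 ± 16.8 CPM in Bmi1-deleted and 102 ± 22.2 CPM in control libraries (SD, n = 4 each, edgeR adjusted p = 0.144, 0.00291 with the block). Mc1r, the melanocortin receptor that drives dark pigment, stood at 12.1 ± 4.93 CPM in Bmi1-deleted and 30.6 ± 12.9 CPM in control libraries (adjusted p = 0.239, 0.233 with the block).

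Genes that act with or on the factors were described in the same way. Of 31 tested cofactors and partners, such as the corepressors Ctbp1 and Ctbp2 and the E proteins that pair with TWIST, 0 rose and 0 fell (median log2 change −0.02). Tcf4, an E protein, stood at 135 ± 24.1 CPM in Bmi1-deleted and 178 ± 15.2 CPM in control libraries (SD, n = 4 each, edgeR adjusted p = 0.448), and Smad3, a TGF-beta transducer, at 19.6 ± 8.46 CPM in Bmi1-deleted and 25.1 ± 5.29 CPM in control libraries (adjusted p = 0.851). Of 15 tested ligases, kinases and related enzymes that set the stability of the proteins 0 rose and 0 fell (median −0.09). Fbxl14 and Fbxo45, ubiquitin ligase subunits that act on these factors, had log2 changes of −0.39 (adjusted p = 0.639) and −0.42 (adjusted p = 0.736).

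Of 22 tested genes of inducing signals 1 rose and 0 fell (median 0.21). This was Epas1, a hypoxia-inducible factor, at 69.3 ± 8.02 CPM in Bmi1-deleted and 35.6 ± 4.09 CPM in control libraries (SD, n = 4 each, log2 change 0.96, SE 0.15, edgeR adjusted p = 0.019). With the block 2 rose, Epas1 and Tgfbr3, a co-receptor of TGF-beta, against 1.71% of all tested genes. Among 13 relatives of the factors 4 were tested and 0 passed. Zfhx3, a large zinc finger homeobox gene like the ZEB genes, stood at 198 ± 12.3 CPM in Bmi1-deleted and 151 ± 22.4 CPM in control libraries (adjusted p = 0.379, 0.0432 with the block), and Zfhx2 at 20.0 ± 3.55 CPM in Bmi1-deleted and 28.1 ± 4.48 CPM in control libraries (adjusted p = 0.532).

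The genes most like each member were taken by Pearson correlation of log2 CPM over the 8 libraries, among 8724 genes of at least 10 CPM. The 8 points share the libraries' cell mixture and depth, and the genes were picked as the highest of many, so no p is given. Zeb2 was followed most closely by Syt11, a vesicle protein (r = 0.988), Reck, a membrane inhibitor of matrix proteases (0.988), and Slc43a2, an amino acid transporter (0.987). Reck stood at 84.2 ± 26.6 CPM in Bmi1-deleted and 63.7 ± 22.5 CPM in control libraries (SD, n = 4 each). For Zeb1 the closest were Ank2, a membrane scaffold (0.946), Rbm12, an RNA-binding protein (0.941), and Dnah7b, a dynein chain (0.937). For Snai2 they were Icam1, an adhesion molecule (0.969), Plekho2 (0.961) and Ppard, a nuclear receptor (0.958). Of these 9 genes 0 passed, with or without the block.

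Among the members, Zeb2 and Twist1 had the highest correlation over the 8 libraries (r = 0.786), and Zeb1 and Twist2 the lowest (−0.455). These values share libraries and cell mixture and are a description.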

How the data were processed

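RNA of 8 libraries was analysed from 2 deposited tables of 54418 Ensembl genes, 54166 with a symbol in GENCODE mouse release M21 (mm10). The first holds estimated counts per gene that the authors deposited as whole numbers, and the submitters' processing notes name Salmon 1.2.1 and build mm10. The second holds log2 values that the authors deposited, of TPM plus 1, since undoing the logarithm gives columns that sum to 1000000. The sources used here do not give the annotation, the strand setting or the rounding. Per the labels the kit was a stranded total RNA kit with PCR and no stated molecular identifiers, so counts include PCR copies.

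Of these genes 16011 passed filterByExpr in edgeR 4.0.16. Their counts, with TMM scaling, went into its robust quasi-likelihood F test (two-sided, R 4.3.3, threshold 0.05 after Benjamini-Hochberg adjustment over all tested genes). Each standard error was derived from the F value. The script was tested on simulated data first. Members outside the filter had an exact two-sided permutation test of log2 of CPM plus 0.5. Alternatives were DESeq2 1.42.0, its size factors, other filters, limma 3.58.1 on the log2 TPM, covariates, and libraries left out. The members and gene lists were chosen with earlier results of these data known, and the lists get counts and medians only.

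Same-numbered libraries deviated together from their group means (correlation across genes 0.13 to 0.204 in the 4 pairs). The replicate numbers of the titles were treated as pairing the libraries, and blocked values stand beside results where they change a call or a count. Deviations were alike to a similar degree between libraries numbered 1 and 2 (0.231 and 0.166) and between those numbered 3 and 4 (0.139 and 0.186). These correlations do not single out the same-numbered pairs, so blocked values and comparisons within pairs depend on that choice.

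The rule for named genes took the 6 members, Bmi1, the 3 genes most correlated with each member of at least 10 CPM, and from each list up to 5 genes that passed or, where none did, the 2 with the largest change among genes of at least 10 CPM. Cdh1, Cdh2, Vim, Zeb2os, Gm10125, Col3a1, Pdgfra, the genes named as passing with the replicate block alone and those of the printed promoters were named outside it after their values were seen. Some marker genes that the rule takes are covered by their list's counts. Promoter sequences are from RefSeq (GRCm38.p6).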

Additional observations from a re-analysis of the deposited data

Results flagged for a closer look

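In 54 groups of 4 libraries (the CPM of the 6 factors, Bmi1 and Cdh1, the ratios between factors and the summed gene lists) the highest or lowest library was compared with the rest, a check that chance alone meets in about 1 of 20 groups. Twist2 stood at 1.88 CPM in Bmi1-deleted library 1, far above the other 3 Bmi1-deleted libraries, at a total of 17 counts. The summed level of the cofactors and partners was 3794 CPM in control library 2, below the other 3 control libraries. The summed level of the dermal papilla markers was 172 CPM in control library 2, above the other 3 control libraries.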

How the results depend on the processing

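Under the 20 alternatives 0 members passed higher and 0 lower. The Twist1 log2 change kept its direction in the 19 alternatives that could be fitted for it (0.21 to 3.20), the filter at 10 CPM leaving it out. Snai1 and Twist2 were fitted only without the filter, at 0.63 (adjusted p = 0.91) and 0.84 (adjusted p = 0.877). That fit gave these genes 209838 total degrees of freedom, far above the number of libraries, so its p-values and counts of calls need care. Zeb2 was 0.12 to 0.44 in 19 alternatives and −0.30 with the fibroblast covariate. Zeb1 turned to 0.13 with the fibroblast covariate and replicate block, and Snai2 to 0.081 without Bmi1-deleted replicate 3. With single libraries left out Zeb1 ran from −0.15 to 0.044 (0.02 without Bmi1-deleted replicate 4, 0.044 and 0.011 without control replicates 2 and 3) and Snai2 from −0.34 to 0.081. The cause was not tested.

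Over all genes 14 passed higher and 1 lower. The counts were 113 higher and 48 lower with DESeq2, 259 and 121 with no filter, and 3 higher with limma on log2 TPM. Passing lower were 3 with DESeq2 size factors, 2 with the filter at 10 CPM and 3 with the fibroblast covariate. The replicate block gave 273 higher and 113 lower, and with the fibroblast covariate 33 and 19. Leaving out single libraries gave 8 (control 2) to 42 (control 1) higher and 0 to 7 lower, and 9 higher without Bmi1-deleted library 2. The blocked fit without 1 pair, chosen after seeing the data, gave 262 higher and 85 lower without pair 1, 83 and 24 without pair 2, 147 and 82 without pair 3, and 136 and 67 without pair 4, with Zeb1 at 0.016 without pair 2 and Snai2 at 0.084 without pair 3. Beside the list counts given in the report, the block changed no call of a member. Depth limits Snai1, Twist1 and Twist2, where 3 counts equal 0.289 to 0.338 CPM.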
